A study of Drosophila melanogaster with 36 samples.

Results

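The cis-NAT siRNA loci are places in the fly genome where annotated transcripts of opposite strands overlap, so that both strands can pair into double-stranded RNA. They were taken as every locus whose identifier in the 6 locus tables begins with cisNAT, apart from cisNAT-1355, which collects reads of the size-marker RNAs. This gave 3476 loci out of 13063 siRNA-locus entries, the others being 8873 transposable elements, 709 merged overlapping annotations, 4 long hairpins and cisNAT-1355 itself. Each overlap is entered once per strand, as cisNAT+ and cisNAT- with the same number, and 1726 overlaps were listed on both strands (1741 loci on the plus strand, 1735 on the minus strand). The median length was 145.5 nt, with quartiles of 71.0 and 389.2 nt and a range of 21 to 8413 nt. Set against the gene models of the dm6 build, 2182 loci lay where genes converge at their 3′ ends, 708 where one gene lies within the span of another (nested) and 584 where genes diverge from their 5′ ends, while 2 could not be paired. A name of convergent-gene loci thus fits 2182 of the 3476, and cis-NAT loci is used here for all of them. Of the 3476, 2619 lay wholly within an untranslated region of a gene on either strand and 337 touched none.

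Libraries came from clonal lines of Drosophila S2 cells, an embryo-derived, hemocyte-like cell line. The study asked whether Dora, the fly homolog of ZSWIM8 and a part of the ubiquitin ligase that destroys Argonaute proteins engaged in target-directed degradation of their guide RNA, also acts on siRNAs. The 36 libraries form 12 groups of 3 clonal lines: dora-mutant and wild-type (WT) lines as total small RNA, periodate-treated small RNA, Ago1-IP small RNA and polyadenylated RNA, then hen1/dora and hen1 lines as total small RNA and as Ago2-IP small RNA. Total small RNA of hen1 lines was set against the WT libraries used in the dora comparison, and total small RNA of hen1/dora lines was not analysed here because only miRNA counts were used from it. Each replicate is another clone, so a difference between clones of 1 genotype and a difference between genotypes share the same spread. Ago1 was pulled down through a FLAG-tagged fragment of human TNRC6B, which binds Ago1 but not Ago2. Ago2 was pulled down from hen1/dora and hen1 lines that had been transfected with FLAG-tagged Ago2, so these libraries report siRNAs on an added protein and have no WT counterpart. The tables hold loci and miRNAs rather than genes, so neither the loss of dora and Hen1 nor the markers of S2 cells could be checked in them.

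Endogenous siRNAs of flies are cut by Dicer-2 from long double-stranded RNA, loaded with the help of R2D2 into Ago2 and then 2′-O-methylated at the 3′ end by Hen1. Periodate oxidation followed by β-elimination spoils the 3′ end of unmethylated RNA for cloning, so treated libraries are enriched for Ago2-bound RNA. Most miRNAs are instead loaded into Ago1 and carry no methyl group, and unprotected guides bound to highly complementary targets are tailed and trimmed.

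Sequences of a pair of loci show what the entries look like: one where nearly all reads lay on a single strand and one where both strands were covered alike. Both have no base in an untranslated region of the printed stretch. cisNAT+1213 (chr3R:11222413-11222489, plus strand, 77 nt) is the snoRNA gene snoRNA:Me18S-C1096, a guide of rRNA methylation, opposite asRNA:CR31144, and in its sequence the capitals mark its only GATGA and its only CTGA, letters found in the C and D boxes of such snoRNAs. cisNAT+1477 covers an exon of fbl, a pantothenate kinase, opposite asRNA:CR43944, and the 150 bases shown (chr3L:20390958-20391107, plus strand) lie in the middle of a coding run of 294 bases.
cisNAT+1213: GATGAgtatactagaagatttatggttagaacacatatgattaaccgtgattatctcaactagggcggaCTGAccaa
cisNAT+1477: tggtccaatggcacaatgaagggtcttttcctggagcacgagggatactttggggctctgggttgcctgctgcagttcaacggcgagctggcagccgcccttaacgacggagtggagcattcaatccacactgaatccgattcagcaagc
The sequences are RefSeq's for the dm6 assembly. Among the 295 cis-NAT loci of 70 to 84 nt, 8.14% hold GATGA on either strand and 22.7% hold CTGA. In treated WT libraries, which were summed over 3 clones, the snoRNA strand of overlap 1213 had 442 reads and its other strand 1, whereas the fbl overlap had 901 reads on the plus strand and 895 on the minus strand.

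Small-RNA libraries held 12557 to 217838 reads in siRNA loci without cisNAT-1355. A set of 5 cis-NAT loci followed the size marker rather than the other members: cisNAT+1717 (CG7546), cisNAT-1363 (Vmat), cisNAT+1367 (CG11248), cisNAT-336 (Lk) and cisNAT+1287 (CG31465). They were picked after their values were seen, because treated dora replicate 1 had at least 100 reads in each and at least 10 times more than any other treated library. In that library they held 20.4% of the cis-NAT reads (5882 reads), against 0.204 to 0.460% in the other 5 treated libraries, and cisNAT-1355 had 12298 reads, against 145 to 206. Size markers and spike-ins made up 66.3% of its reads in the miRNA counts, against 0.224 to 0.500% in the other 5. With a limit of 20 reads 1 more member followed the marker, cisNAT+1429 (CG13314 opposite Galk), with 55 reads in that library and at most 3 in the others, and it was kept. Over all siRNA loci that limit took 16, of which 10 were not cis-NAT loci. In Ago1-IP libraries the 5 loci held 74.7 to 85.4% of all cis-NAT reads. Why they follow the marker was not tested, and values are given with and without them.

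Cis-NAT loci gave a larger share of siRNA-locus reads in Ago2-IP libraries than in total or treated RNA, while their place in Ago1-IP libraries turned on the loci that follow the marker. With all members their share was 33.2% ± 5.21 in total dora, 37.3% ± 2.58 in total hen1 and 37.8% ± 1.56 in total WT libraries (SD, n = 3 each). Among periodate-treated libraries it was 35.9% ± 6.38 in dora and 39.9% ± 1.54 in WT. In Ago2-IP libraries it was 52.8% ± 1.43 in hen1/dora and 59.1% ± 2.67 in hen1, and the ranges of 51.2 to 53.8% and 57.1 to 62.1% did not overlap, though 3 libraries against 3 cannot give an exact permutation p below 0.1. In Ago1-IP libraries the share was 38.8% ± 1.01 in dora and 49.5% ± 0.672 in WT, so that the WT libraries lay above all 9 total and all 6 treated libraries.

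The share was taken again without any of the 16 loci that met the limit of 20 reads, removed from the cis-NAT reads and from the siRNA-locus reads alike. Ago1-IP libraries then gave 16.8% ± 0.689 in dora, from 16.2 to 17.5%, and 22.3% ± 3.5 in WT, from 19.9 to 26.3%. The other groups moved little, with 31.3% ± 5.01 in total dora, 36.0% ± 2.39 in total hen1 and 36.0% ± 2.17 in total WT libraries, 34.9% ± 5.22 in treated dora and 39.9% ± 1.54 in treated WT, and 52.0% ± 1.92 in Ago2-IP hen1/dora and 59.2% ± 2.95 in Ago2-IP hen1. The direction between Ago1-IP WT and total or treated RNA thus depends on these loci, and even without them the Ago1-IP WT range overlapped that of total dora. A low cis-NAT share stood out in replicate 3 of dora, with 25.5% in total and 28.9% in treated RNA, against 34.7 and 33.5% and 38.3 and 37.4% in the other dora libraries.

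**Figure D1:**
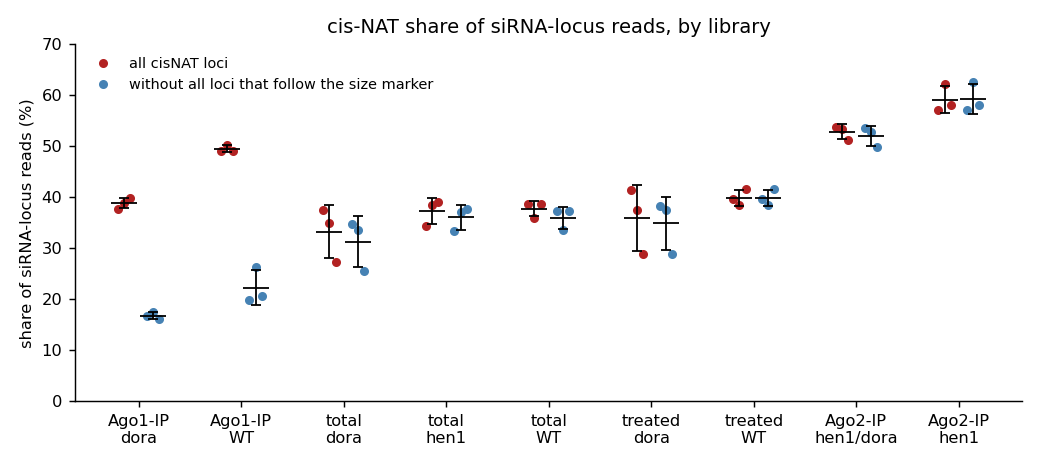
Share of siRNA-locus reads (vertical axis, %) that fell in cis-NAT loci in each small-RNA library, by library type and genotype, with all 3476 loci in red and, in blue, with the 16 loci that follow the size marker taken out of both the cis-NAT and the siRNA-locus reads. Points are clonal lines and bars are mean ± SD; the Ago1-IP WT values change to 19.9 to 26.3% once these loci are left out, while the treated WT values stay between 38.5 and 41.5%.

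Relative to miRNAs, cis-NAT reads were fewest in Ago1-IP libraries and most frequent in treated and Ago2-IP libraries. Per 1000000 miRNA reads and without the 5 loci, cis-NAT reads came to 217 ± 46.0 in Ago1-IP dora and 185 ± 48.2 in Ago1-IP WT libraries (SD, n = 3 each). Total libraries had 6232 ± 495 in hen1 and 8116 ± 1277 in WT, and treated libraries had 77959 ± 7809 in dora and 87678 ± 11141 in WT. These library types were scaled separately, so the levels stand side by side without a test. Periodate treatment and pulldown also change the miRNA reads that the ratio divides by, as most miRNAs are unmethylated and bound to Ago1. How far this sets the differences between library types was not tested. For total dora and for the Ago2-IP groups, clone numbers could not be matched between the locus and miRNA tables, and the pooled ratios were 5879 in total dora, 43640 in Ago2-IP hen1/dora and 45867 in Ago2-IP hen1 libraries.

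Reads were spread over many loci, with 10 of them holding 14.9% of cis-NAT reads in treated WT libraries and 79 holding 50%. The convergent arrangement carried most of them. Convergent loci were 62.8% of all loci and held 88.4% of the treated WT reads, nested loci were 20.3% of loci with 8.77% of reads, and divergent loci were 16.8% of loci with 2.79% of reads. Total WT libraries split likewise, at 85.3, 10.5 and 4.22%, and Ago1-IP WT libraries gave 76.8, 16.9 and 6.34%. Many loci had no reads: 2398 of 3476 were above 0 in any of the 6 treated libraries and 966 in all 6, compared with 2206 and 765 in total, 2234 and 913 in Ago2-IP and 1386 and 156 in Ago1-IP libraries.

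Values below are scaled reads, the deposited unit, in which the reads of a library are scaled to its genome-mapped reads. Among the 10 loci highest in treated WT libraries, 9 were convergent and 6 formed 3 complete overlaps. The overlap of AGO2 with CG7739 (chr3L:15560725-15561042) joins the 3′ end of the gene for the siRNA Argonaute itself to its neighbour. Its AGO2 strand, cisNAT+885, had 57191, 98624 and 63854 scaled reads in treated dora libraries and 54908, 64314 and 93260 in treated WT libraries. Its CG7739 strand, cisNAT-885, had 48497, 92242 and 63046 in treated dora and 50481, 54013 and 82556 in treated WT libraries. The groups overlapped on both strands. In Ago1-IP libraries the AGO2 strand had only 15 to 23 reads in dora and 9 to 16 in WT.

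The neighbouring overlap of RhoGAP71E with CG7650 (chr3L:15608706-15609125) was of like size. Its strands averaged 64962 ± 12297 and 56712 ± 16559 scaled reads in treated dora and 54803 ± 11309 and 52972 ± 10200 in treated WT libraries (SD, n = 3). Set1, a histone H3K4 methyltransferase, and MED21, a Mediator subunit, formed the other complete overlap in this top group, with 49415 ± 15378 on the Set1 strand and 56542 ± 16749 on the MED21 strand in treated WT. cisNAT+772, the strand of Pof (a protein that coats the fourth chromosome) opposite the matrix metalloproteinase gene Mmp1, was less even between clones. It had 65070, 134424 and 19904 scaled reads in treated dora and 66750, 78312 and 114985 in treated WT libraries, and 30800, 58520 and 13020 in total dora against 44521, 36182 and 52528 in total WT libraries. Dora replicate 3 was the lowest library in both kinds of RNA.

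Both strands of an overlap were usually covered alike. Of 1721 overlaps with both strands, leaving out those of the 5 loci, 195 had at least 100 reads in treated WT libraries. The stronger strand held a median of 54.4% of their reads (upper quartile 59.1%), and 151 of the 195 had under 60% on the stronger strand. Levels on the strands followed each other over these overlaps, with a Spearman correlation of 0.79, a description across overlaps that share libraries and length. The medians were 54.2% in treated dora, 54.9% in total WT and 54.6% in Ago2-IP hen1 libraries. The poly(A) RNA of the strands was much less even. Of the 195 overlaps, 54 were at least 300 nt long and had FPKM above 0 on both strands. Over these 54, the median absolute log2 ratio between strands was 0.19 for siRNA reads and 2.82 for FPKM. The strand with more siRNA was the strand with more poly(A) RNA in 30 of these 54.

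**Figure D2:**
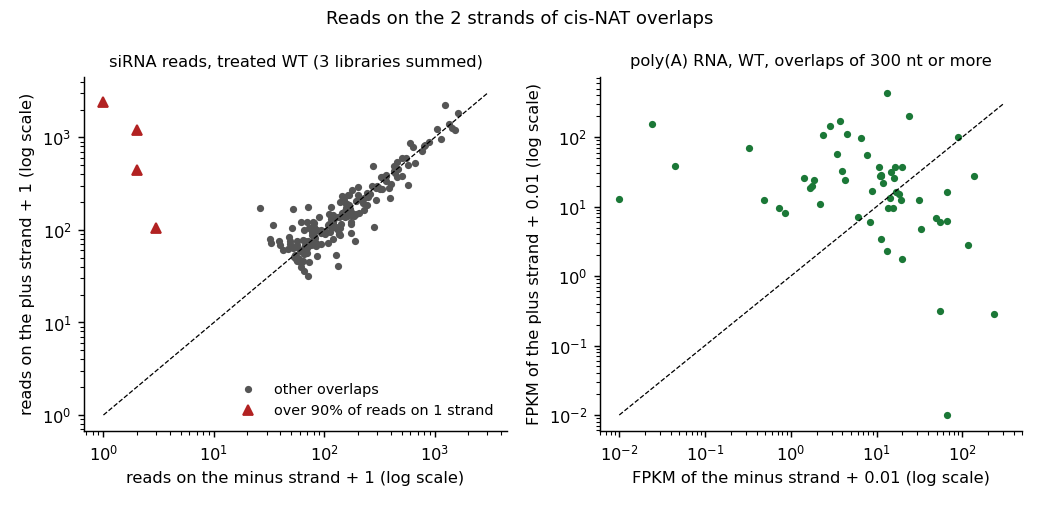
Left: reads on the plus strand against reads on the minus strand (both + 1, log axes) for the 195 overlaps with at least 100 reads in treated WT libraries, 3 clones summed, with red triangles for the 4 overlaps that have over 90% of reads on 1 strand. Right: mean WT FPKM of the strands (+ 0.01, log axes) for those of 300 nt or more; the siRNA points lie along the dashed line of equality and the FPKM points scatter away from it.

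In 4 overlaps over 90% of the reads lay on 1 strand, and in 3 of these it was the strand of a snoRNA. snoRNA:Or-aca4 (cisNAT+1539, opposite CG44403) had 949, 773 and 683 reads in treated WT libraries and none on its other strand. snoRNA:Or-CD2 (cisNAT+634, opposite Ctu1) had 403, 413 and 377 reads and 1 on the other strand, and snoRNA:Me18S-C1096 (cisNAT+1213) had 125, 167 and 150 reads and 1 on the other strand. The fourth was the strand of AspRS, an aspartyl-tRNA synthetase, at cisNAT+1614, with 31, 38 and 34 reads, against 2 in sum on the other strand. cisNAT+1539 was the highest of all cis-NAT loci in treated WT libraries, at 95996 ± 21235 scaled reads (SD, n = 3). Treated dora replicate 1 stood apart at these loci as well, with 54, 28, 4 and 0 reads at cisNAT+1539, cisNAT+634, cisNAT+1213 and cisNAT+1614, against 651, 390, 83 and 21 in replicate 2 and 887, 385, 134 and 26 in replicate 3. In Ago2-IP libraries the 3 snoRNA strands were low, with 12 to 23 reads at cisNAT+1539 in hen1/dora and 11 to 19 in hen1.

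Over the 1721 overlaps, treated WT reads per kb had a Spearman correlation of 0.0013 with length, and read numbers had one of 0.28 with length. All correlations in this paragraph are descriptions across overlaps that share libraries. Overlaps up to 50 nt, over which the median was 0 reads per kb, weigh on the first value. The median was 32.8 reads per kb at 51 to 100 nt, 20.7 at 101 to 200 nt, 17.0 at 201 to 400 nt, 9.52 at 401 to 1000 nt and 7.21 above 1000 nt, so that above 50 nt longer classes had lower densities. Overlaps of 101 to 400 nt (631 of 1721) carried most reads, 28.1% in the class of 101 to 200 nt and 28.5% in that of 201 to 400 nt. Overlaps up to 50 nt had reads in 43.7% of cases and held 1.96% of all reads, whereas those above 1000 nt had reads in 96.5% and held 7.59%. Among the overlaps with at least 10 reads in every treated WT library, the correlation between reads per kb and length was -0.52 (n = 305), where the read minimum itself keeps short overlaps only at high density. The 10 longest loci tested in total RNA differed widely. The lowest of them, gce (cisNAT+1581, 2882 nt), had 3, 3 and 2 reads in treated WT libraries. Atu (cisNAT+1752, 2583 nt) had 10, 9 and 7, the zfh2 strand cisNAT+304 (2544 nt) had 31, 28 and 54, and the asRNA:CR44390 strand cisNAT-1537 (3005 nt) had 34, 38 and 54.

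Over all overlaps the density of siRNAs had a higher Spearman correlation with poly(A) RNA than with length, and overlaps with poly(A) RNA on both strands had the highest densities. FPKM of very short loci is inflated by the length correction: the median of the lowest non-zero FPKM was 573.7 in loci up to 75 nt and 0.477 in loci of 600 to 1000 nt, and 9 of the 477 loci up to 50 nt were above 0 in any RNA-seq library. The relation is thus given for the 530 overlaps of at least 300 nt, a limit chosen after the values were seen. The Spearman correlation between treated WT reads per kb and FPKM was 0.63 for the strand with less poly(A) RNA and 0.68 for the strand with more. Where reads were abundant (at least 10 in every treated WT library, n = 87) the correlation was 0.78 for the lower strand and 0.27 for the higher strand. By class of lower-strand FPKM, the median was 3.94 reads per kb at 0 (277 overlaps), 17.1 above 0 to 1 (159), 69.8 above 1 to 10 (72) and 1201 above 10 to 100 (22). For comparison, 65 overlaps with one strand at 0 and the other above 10 FPKM had a median of 11.3 reads per kb. Over all 1721 overlaps the correlation was 0.66 for the lower and 0.57 for the higher strand. The 5 loci with the highest FPKM were 53 to 77 nt long, and cisNAT-92, the strand of the cyclophilin gene Cyp1, had 2 reads in each treated WT library at 43594 FPKM. The strand of the glycolytic gene Pgk, cisNAT-1327, had 44, 27 and 48 reads at 14686 FPKM, and that of the phospholipid synthesis gene Pect, cisNAT+571, had 12, 9 and 27 reads at 21351 FPKM.

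**Figure D3:**
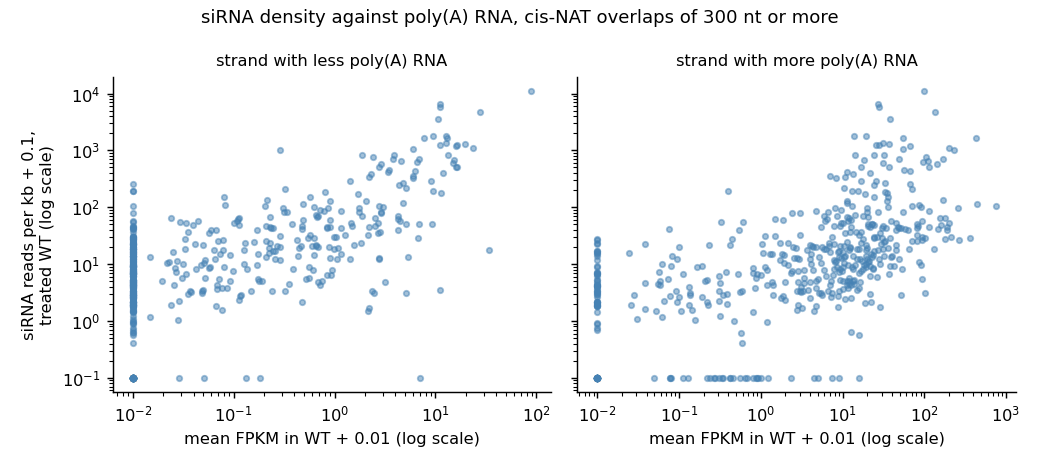
siRNA reads per kb in treated WT libraries (+ 0.1, log axis, 3 clones summed) against mean WT FPKM (+ 0.01, log axis) for 530 overlaps of at least 300 nt, by the strand with less poly(A) RNA (left) and with more (right). Each point is an overlap; points at the left edge are listed at 0 FPKM, and the 22 overlaps with over 10 FPKM on the lower strand sit at a median of 1201 reads per kb.

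How a locus divides between methylated and unmethylated RNA was read from ratios of scaled reads in WT libraries, which have no common scale between library types and are given only to rank loci. The ratio of treated to total had a median of 1.95 over the 241 loci with at least 10 reads in every WT library, without the 5 loci, and 1.75 over 46 other siRNA loci, or 1.84 over the 44 of these that do not follow the marker. Its quartiles were 1.71 and 2.16 over these 241 loci. The read minimum leaves out loci with few reads in either library type, so the quartiles do not tell how alike cis-NAT loci are in general. The lowest of the 241 was the snoRNA strand cisNAT+1213 at 0.731, and the highest were cisNAT+682 (bug opposite Mlf) at 3.91 and cisNAT+958 (CG10098 opposite CG10068) at 3.31. The marker-following loci that qualified had ratios of 0.0347 to 0.0611. For Ago1-IP over treated, only 2 other cis-NAT loci had enough reads. These were cisNAT-168, the strand of the filamin gene cher opposite cal1 (a loader of the centromeric histone), at 0.0226, and cisNAT+712, the strand of the kinase gene par-1, at 0.149, while the marker-following loci had ratios of 29.5 to 51.02. Among 11 siRNA loci of other kinds the median was 0.0566 and the highest 30.5, and over the 9 of them that do not follow the marker the median was 0.0378 and the highest 0.695.

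No cis-NAT locus passed the test without Dora in total or in treated small RNA. In total RNA 755 of the 3476 loci had a value above 0 in all 6 libraries and a relative SD under 1 within each genotype, and limma with Benjamini-Hochberg adjustment over all 962 tested siRNA loci called 0 higher and 0 lower (background 0% in each direction), as did edgeR on recovered reads. At an unadjusted p under 0.05 there were 75, of which 27 were higher and 48 lower. The median log2 change was -0.15 over the tested cis-NAT loci and -0.06 over all tested loci. In treated RNA 935 loci were tested of 1323 in all, with 0 called in either direction (background 0%), 62 at an unadjusted p under 0.05 (18 higher, 44 lower) and median changes of -0.19 and -0.15. Groups did not overlap at 36 loci that were higher and 76 that were lower in total dora, 4.77% and 10.1% of those tested, against a background of 6.34% and 8.63%. In treated dora these were 29 and 69 loci, 3.102% and 7.38%, against 4.46% and 6.95%. Single libraries moved the calls. Without dora replicate 3, whose cis-NAT share was low, there were 5 higher and 1 lower in total and 12 higher and 4 lower in treated RNA. Without dora replicate 2 there were 4 lower in total and 3 lower in treated RNA, and without WT replicate 1 or 2 there was 1 lower in total RNA. Treated dora replicate 1 was mostly size-marker and spike-in reads (66.3%). Leaving it out gave 0 higher and 0 lower in treated RNA, with a median log2 change of -0.08 over 1015 tested cis-NAT loci.

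The loci nearest to the threshold are given as values only. The overlap of Vamp7, a vesicle SNARE, with Marc had more reads without Dora on both strands. Its Vamp7 strand, cisNAT-1573, had 2581, 3690 and 4951 scaled reads in treated dora and 957, 660 and 1908 in treated WT libraries, a log2 change of 1.76 ± 0.52 (SE; limma adjusted p = 0.4706). Its Marc strand, cisNAT+1573, had 4075, 3889 and 5052 in treated dora and 1794, 792 and 2226 in treated WT libraries. The groups did not overlap, and reads were few, 19 to 50 in dora and 5 to 21 in WT. cisNAT-1175, the strand of yellow-f opposite CG31342, had 2363, 3305 and 2240 scaled reads in total dora and 727.5, 544.1 and 1142 in total WT libraries (log2 change 1.76 ± 0.45, limma adjusted p = 0.1177). Toward lower values, cisNAT-33, the strand of fy opposite CG31898, had 393.8, 275.4 and 140.0 in total dora and 1455, 1360 and 1631 in total WT libraries, a log2 change of -2.57 ± 0.60 with a limma adjusted p of 0.08474, the smallest of any member in total RNA. cisNAT-1360, the strand of the SNARE gene Vti1a opposite the Rab gene RabX6, had 21462, 17900 and 15820 in total dora and 32736, 25164 and 36704 in total WT libraries, without overlap (log2 change -0.77 ± 0.23, limma adjusted p = 0.2107).

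Several of the other loci with the smallest unadjusted p stood on few reads. cisNAT+958, the strand of CG10098 opposite CG10068, had 5176, 4957 and 5040 scaled reads in total dora and 2182, 2040 and 2447 in total WT libraries, a log2 change of 1.19 ± 0.30 (limma adjusted p = 0.1177). The dora libraries were close to each other and lay above the WT libraries, which held 15 reads each. cisNAT-1361, the strand of the intraflagellar transport gene rempA opposite Tspo, had 1322, 2341 and 1820 in total dora and 3346, 4353 and 6525 in total WT libraries, without overlap (log2 change -1.36 ± 0.36, limma adjusted p = 0.1518). In treated RNA, cisNAT+969, which holds Nasp and asRNA:CR44228, had 1, 3 and 4 reads in dora and 9, 12 and 14 in WT, and cisNAT-798, the strand of CG13933, had 1 read in each dora library and 5, 3 and 5 in WT. Their log2 changes of -2.42 ± 0.67 and -2.16 ± 0.62 had a limma adjusted p of 0.4706. At neither locus did the groups overlap.

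In Ago1-IP libraries 3 cis-NAT loci rose without Dora and none fell. These libraries were thin at cis-NAT loci, and 148 of 3476 passed the filter, of 227 siRNA loci in all. The calls were 2.03% of the tested cis-NAT loci, against 2.64% higher (background 0% lower) over all tested loci, so cis-NAT loci were not called more often than the rest. At an unadjusted p under 0.05 there were 14 loci, 9 higher and 5 lower, and the median log2 change was 0.09, against 0.05 over all tested loci. Groups did not overlap at 13 loci higher and 6 lower in dora (8.78% and 4.05%, background 10.1% and 4.41%).

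cisNAT+304 (chr4:538331-540874) is the 3′ part of zfh2, a homeodomain and zinc-finger factor, opposite Tdg, a thymine DNA glycosylase. It had 32, 53 and 22 reads (2461, 3306 and 1494 scaled reads) in Ago1-IP dora and 8, 4 and 7 reads (645, 437 and 522 scaled reads) in Ago1-IP WT libraries. The log2 change was 2.12 ± 0.42 (SE), with an adjusted p of 0.0003513 in limma. Every dora library lay above every WT library, and the Tdg strand had 2, 0 and 1 reads in dora and 0, 1 and 0 in WT.

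cisNAT+370 (chrX:3387943-3391697) is the 3′ end of Myc, a growth regulator, opposite CG12535. It had 34, 45 and 29 reads in Ago1-IP dora and 9, 12 and 9 in Ago1-IP WT libraries, a log2 change of 1.50 ± 0.38 (limma adjusted p = 0.01045). cisNAT-106 (chr2R:10541595-10541669) lies in 5′ untranslated sequence of lola, a BTB zinc-finger factor, opposite asRNA:CR45135, and had 14, 12 and 15 reads in dora and 4, 2 and 1 in WT (log2 change 2.42 ± 0.64, limma adjusted p = 0.01431). The other strands, cisNAT-370 and cisNAT+106, had 0 or 1 reads in every Ago1-IP library. Reads of the Myc overlap lay on 1 strand elsewhere too, with 120 at cisNAT+370 and 10 at cisNAT-370 in Ago2-IP hen1/dora and 219 and 1 in Ago2-IP hen1 libraries, 3 clones summed. At least 100 reads in Ago1-IP WT libraries were reached by 2 overlaps without the 5 loci, with a median of 99.6% on the stronger strand. They include the overlap of cisNAT+1429, which follows the size marker and had 33, 49 and 45 reads in Ago1-IP WT libraries. The median is therefore no measure of strand use by siRNAs on Ago1. The files give sums per locus, so how many distinct small RNAs these reads come from cannot be read from them.

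At these loci no call was made in the other library types in which they were tested. cisNAT-106 did not pass the filter in treated, Ago2-IP or poly(A) RNA. Summed over 3 clones, it had 3 reads in treated dora and 5 in treated WT libraries. In Ago2-IP libraries it had 1 in hen1/dora and 6 in hen1. In Ago2-IP libraries cisNAT+304 had 24459, 14237 and 16592 scaled reads in hen1/dora and 23638, 27558 and 31352 in hen1 (log2 change -0.61 ± 0.24, limma adjusted p = 0.5211). cisNAT+370 had 40, 40 and 40 reads in hen1/dora and 79, 78 and 62 in hen1 (log2 change -0.90 ± 0.25, limma adjusted p = 0.159). In total RNA cisNAT+370 had 1013, 1377 and 1680 scaled reads in dora and 582.0, 1224 and 1142 in WT, where the groups overlapped (log2 change 0.51 ± 0.49, limma adjusted p = 0.7075), and cisNAT-106 had a log2 change of -0.47 ± 0.55. In treated RNA the log2 changes were -1.29 ± 0.60 at cisNAT+304 and -0.71 ± 0.59 at cisNAT+370 (limma adjusted p = 0.5807 and 0.8002). Their poly(A) RNA was 31.1 ± 7.38 FPKM in dora and 38.8 ± 6.41 in WT at cisNAT+304, and 17.8 ± 2.30 in dora and 22.8 ± 2.25 in WT at cisNAT+370 (SD, n = 3). The Ago1-IP calls rested on few reads: with at least 10 reads in every library 0 of the 3 could be called, and edgeR on recovered reads gave 3 higher and 3 lower. The count was 1 without dora replicate 1 or WT replicate 3 and 2 without dora replicate 2, and it was 4 higher with 6 lower without dora replicate 3.

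**Figure D4:**
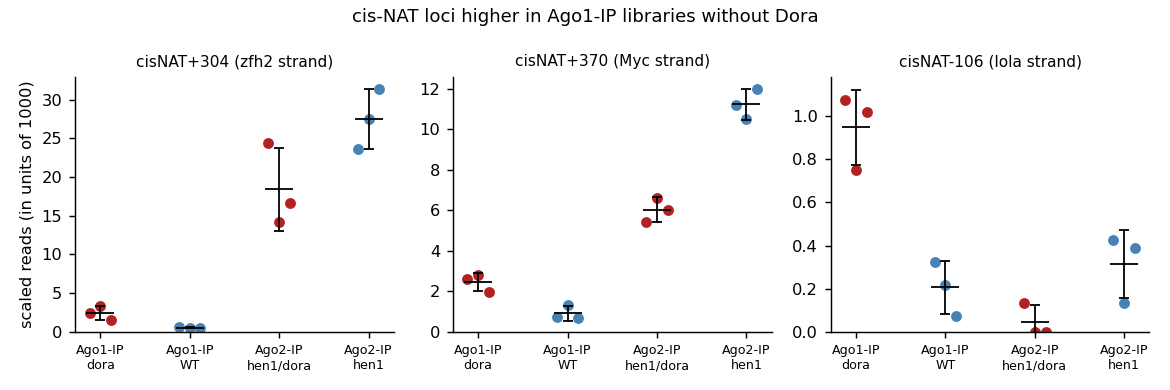
Scaled reads (vertical axis, in units of 1000) at cisNAT+304, cisNAT+370 and cisNAT-106 in Ago1-IP dora and WT and in Ago2-IP hen1/dora and hen1 libraries. Points are clonal lines, bars are mean ± SD; the Ago1-IP dora points lie above the Ago1-IP WT points at all 3 loci, and at cisNAT+370 the Ago2-IP hen1/dora points lie below the hen1 points.

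On Ago2 of cells without Hen1, again no cis-NAT locus passed the test without Dora. Limma called 0 of 903 tested loci in either direction (background 0.0861% higher and 0.0861% lower among 1161 siRNA loci), with 64 at an unadjusted p under 0.05 (33 higher, 31 lower) and a median log2 change of -0.03, against -0.00 over all tested loci. edgeR on recovered reads called 3 higher and 0 lower. Groups did not overlap at 47 loci higher and 58 lower in hen1/dora, 5.21% and 6.42% of those tested, against 5.77% and 5.51%. The smallest adjusted p was that of the Marc strand cisNAT+1573 (limma adjusted p = 0.05916), with 2297, 2980 and 2413 scaled reads in hen1/dora and 707.7, 672.1 and 580.6 in hen1 libraries, a log2 change of 1.97 ± 0.47. Its Vamp7 strand had 2162, 3477 and 3771 in hen1/dora and 1415, 1075 and 967.7 in hen1 libraries (log2 change 1.42 ± 0.41). On neither strand did the groups overlap, and hen1 libraries held 3 to 10 reads. cisNAT+303, the strand of Creld opposite the sodium-proton exchanger gene Nhe1, had 9865, 12251 and 10860 in hen1/dora and 6653, 2285 and 7161 in hen1 libraries (log2 change 1.20 ± 0.32, limma adjusted p = 0.1418), while cisNAT-103, the strand of the translation factor gene eIF2beta, had 2297, 827.8 and 1358 in hen1/dora and 3397, 3764 and 3677 in hen1 libraries (log2 change -1.39 ± 0.40, limma adjusted p = 0.159). Leaving out 1 library gave 0 to 4 higher and 0 to 2 lower, with 4 higher without the first hen1 library and 2 in each direction without the second hen1/dora library.

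Poly(A) RNA across the loci gave no call either. Of the 3476 loci 1173 were tested, and limma called 0 higher and 0 lower (background 0% in each direction among 1921 siRNA loci), with 146 at an unadjusted p under 0.05 (30 higher, 116 lower). Groups did not overlap at 59 loci higher and 166 lower in dora, 5.03% and 14.2%, against a background of 6.66% and 12.6%. The log2 changes of both strands had the same sign in 57.6% of 278 overlaps with both strands tested in poly(A) RNA. The share was 54.5% of 33 in Ago1-IP, 64.9% of 336 in Ago2-IP, 70.4% of 385 in treated and 73.3% of 288 in total small RNA, given as a description without a test. At the AGO2 locus poly(A) RNA was 77.6 ± 10.2 FPKM in dora and 100.3 ± 13.4 in WT on the AGO2 strand (log2 change -0.37 ± 0.24, limma adjusted p = 0.5433) and 87.2 ± 17.4 and 88.9 ± 5.93 on the CG7739 strand.

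The loci with the smallest unadjusted p in poly(A) RNA are given as values. cisNAT-161, the strand of the cytochrome P450 gene Cyp6a9 opposite Cyp6a19, had 10.49, 19.73 and 23.19 FPKM in dora and 2.184, 2.934 and 2.148 in WT libraries (log2 change 2.81 ± 0.38, limma adjusted p = 0.0986). cisNAT-1350, within Diap1, an inhibitor of apoptosis, opposite asRNA:CR45889, had 30.15, 61.42 and 47.55 FPKM in dora and 10.35, 9.272 and 12.73 in WT libraries (log2 change 2.06 ± 0.33, limma adjusted p = 0.0986). Both had at most 2 reads in any treated library. Among lower values, cisNAT-249, the strand of the thymidylate synthase gene Ts opposite Rbp9, had 23.4, 21.67 and 15.37 FPKM in dora and 66.95, 55.97 and 92.21 in WT libraries (log2 change -1.82 ± 0.30, limma adjusted p = 0.0986) and no read in any of the 6 treated libraries. cisNAT-1253, the strand of QC opposite CG32409, had 90.16, 139.1 and 148.1 FPKM in dora and 438.6, 369.7 and 609.1 in WT libraries (log2 change -1.91 ± 0.31, limma adjusted p = 0.0986). This locus held siRNAs, with 7879, 11368 and 6971 scaled reads in treated dora and 9690, 15451 and 16320 in treated WT libraries (log2 change -0.66 ± 0.37, limma adjusted p = 0.6883). The FPKM of the groups did not overlap at these 4 loci, whereas the treated reads of cisNAT-1253 overlapped.

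Loss of Hen1 was the comparison in which many cis-NAT loci changed. Of 786 tested loci, 61 fell and 6 rose in total small RNA of hen1 lines (edgeR's quasi-likelihood test with Benjamini-Hochberg adjustment, with the reads of a cohort of 15 miRNAs as library size). These were 7.76% and 0.763% of the tested cis-NAT loci, against 6.75% lower and 1.69% higher over all 1008 tested siRNA loci, and 7 lower and 11 higher of the 222 other loci. The median log2 change was -0.36 over the tested cis-NAT loci and -0.30 over all. Groups did not overlap at 177 loci lower and 34 higher in hen1 (22.5% and 4.33%, background 20.2% and 7.04%). The loci that fell had a median log2 change of -1.84, between -3.62 and -0.85. They lay in 43 overlaps, 18 of them called on both strands, and the 12 partner strands that were tested but not called all had a change of the same sign.

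The scale bears on this count. Scaling by TMM over the loci moved the median of all loci to -0.05 and gave 44 lower and 14 higher, so that 24.1% of calls were higher, against 8.96% with the miRNA cohort. Libraries of hen1 and WT lines came from 2 batches, so batch and genotype cannot be told apart. Without WT replicate 3 the counts were 27 lower and 2 higher, and the count higher was also 2 without hen1 replicate 2 and 3 without hen1 replicate 1 or WT replicate 1. 1 of the 61 is the marker-following cisNAT-1363, with 117, 137 and 164 reads per 1000000 cohort reads in hen1 and 321, 373 and 351 in WT libraries, and cis-NAT calls without the 5 loci were 60 lower and 6 higher.

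The smallest adjusted p belonged to a pair of one-strand snoRNA entries. In reads per 1000000 cohort reads, snoRNA:Or-CD2 (cisNAT+634) had 16.8, 18.9 and 31.5 in hen1 and 153.5, 93.5 and 139.3 in WT libraries, a log2 change of -2.52 ± 0.28 (SE; edgeR adjusted p = 7.09e-08). snoRNA:Or-aca4 (cisNAT+1539) had 15.9, 17.7 and 43.1 in hen1 and 413.7, 50.99 and 484.4 in WT libraries (log2 change -3.62 ± 0.44, edgeR adjusted p = 1.873e-07). Its WT replicate 2 lay near the hen1 libraries, although the groups did not overlap. snoRNA:Me18S-C1096 (cisNAT+1213), whose sequence is given above, had 31.1, 29.6 and 40.5 in hen1 and 100.9, 100.8 and 144.5 in WT libraries (log2 change -1.77 ± 0.26, edgeR adjusted p = 7.091e-06). The AspRS strand cisNAT+1614 fell as well, with 1.243, 1.221 and 2.891 in hen1 and 4.497, 6.07 and 6.131 in WT libraries.

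Loci with siRNAs on both strands were called as well, some with a smaller adjusted p than cisNAT+1213. The overlap of PolZ1, the catalytic subunit of DNA polymerase zeta, with Nop17l had 14.3, 24.7 and 21.1 on the PolZ1 strand (cisNAT+621) in hen1 and 73.9, 58.3 and 110.4 in WT libraries, and 8.08, 17.1 and 15.9 on the Nop17l strand (cisNAT-621) in hen1 and 45.6, 43.1 and 103.4 in WT libraries. Log2 changes were -2.0 ± 0.29 and -2.20 ± 0.33 (edgeR adjusted p = 6.127e-06 and 7.091e-06). The divergent overlap of rempA with the translocator gene Tspo fell on both strands, with 1.86, 0.92 and 3.18 at cisNAT-1361 in hen1 and 14.8, 19.4 and 35.0 in WT libraries. ref(2)P, the fly p62, and CG10337 (cisNAT+593 and cisNAT-593) fell by 2.56 and 2.50 on the log2 scale. Both strands of the fbl overlap printed above fell by less, with log2 changes of -0.87 ± 0.25 and -0.86 ± 0.26 (edgeR adjusted p = 0.02175 and 0.02732), and so did both strands of Vti1a and RabX6, at -0.89 ± 0.25 and -0.85 ± 0.26.

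**Figure D5:**
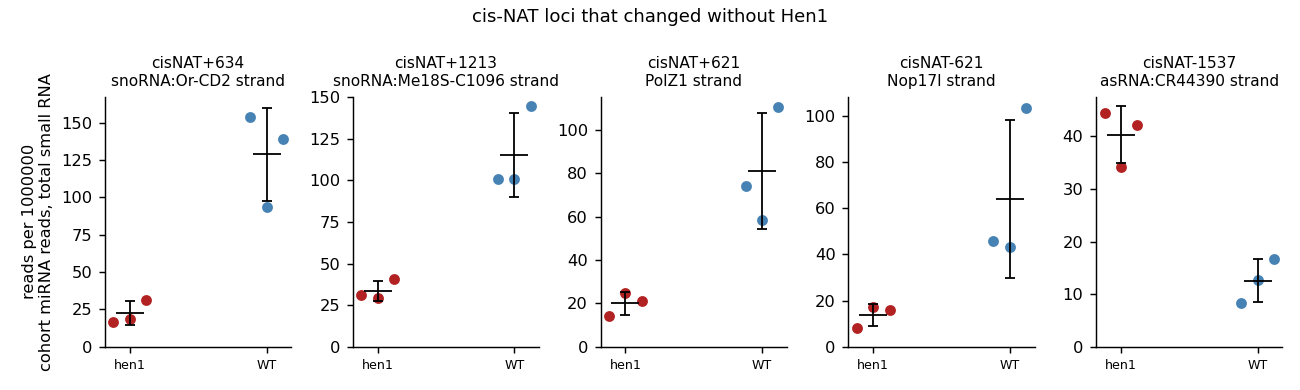
Total small RNA at 5 cis-NAT loci in hen1 (left in each panel) and WT lines (right), in reads per 1000000 reads of the miRNA cohort (vertical axes start at 0 and differ between panels). Points are clonal lines and bars are mean ± SD; at cisNAT+634, cisNAT+1213, cisNAT+621 and cisNAT-621 every hen1 point lies below every WT point, and at cisNAT-1537 every hen1 point lies above.

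The 6 loci that rose lay in 5 overlaps. The leading one was cisNAT-1537, the asRNA:CR44390 strand opposite Dark, the fly apoptosome gene, with 44.4, 34.2 and 42.2 in hen1 and 8.35, 12.8 and 16.6 in WT libraries (log2 change 1.70 ± 0.31, edgeR adjusted p = 0.0001702). The others were both strands of CG11109 with asRNA:CR45968 (cisNAT+1187 and cisNAT-1187), CG12213 opposite the mitotic kinase gene aurA (cisNAT-1354), CG15382 opposite the Ets repressor gene aop (cisNAT+7) and lok, the fly Chk2 kinase, opposite vls (cisNAT+87). At cisNAT+1187 and cisNAT-1187 the groups overlapped. Of the most abundant overlaps, cisNAT+1539 and both strands of Vti1a and RabX6 fell, as given above, and those of AGO2 and RhoGAP71E did not pass the test. The AGO2 strand had 143.2, 111.5 and 127.2 reads per 1000000 cohort reads in hen1 and 148.4, 140.8 and 203.2 in WT libraries (log2 change -0.36 ± 0.24, edgeR adjusted p = 0.3971), and the RhoGAP71E strand had a log2 change of 0.01 ± 0.24. Total dora and hen1 libraries were compared with the same WT clones, so their changes are not independent of each other. cisNAT-1360 is an example, with log2 changes of -0.77 in dora, not past the threshold, and -0.89 in hen1.

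Genes of RNA silencing were looked up as a list, and 9 of them had a cis-NAT locus. AGO2 had 3436 reads in treated WT libraries, summed over both strands and 3 clones, and 1282 in total WT libraries. r2d2, which encodes the partner of Dicer-2 in loading Ago2, overlaps the phosphatase gene Cdc14 (chr2L:7801667-7802098) and had 713 and 250 reads. Nbr, a trimming exonuclease, had 192 and 75, while zuc had 38 and 11, piwi 22 and 6, loqs 6 and 8, and aub, mael and Tailor at most 2 each. Among known cis-NAT genes tkv had no reads in either. None of these loci passed the test in any comparison in which it was tested. The loci of aub, mael and Tailor did not pass the filter in any comparison. Of the tkv overlap only cisNAT-82 did, in poly(A) RNA. The r2d2 strand, cisNAT+531, had 4755, 10371 and 7982 scaled reads in treated dora and 11484, 12546 and 12929 in treated WT libraries, without overlap of the groups, a log2 change of -0.75 ± 0.38 (limma adjusted p = 0.6412). Its Cdc14 strand had a log2 change of -0.91 ± 0.36 in treated dora (limma adjusted p = 0.5049) and of -0.88 ± 0.29 in hen1 (edgeR adjusted p = 0.05187).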

How the data were processed

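Small RNA and poly(A) RNA of S2 clonal lines were measured (36 libraries, 3 per group). The authors trimmed and filtered reads, mapped them to dm6 by STAR 2.4, then took sums at 13063 curated loci by Cuffdiff 2.2.1, by strand and without length correction for small RNA. Total, treated, Ago1-IP and Ago2-IP locus values were deposited as a signal, reads scaled to genome-mapped reads. Dividing by the step of each library gave whole reads for 100% of low non-zero values, the only ones checked (tolerance 0.1). This held for total, treated, Ago1-IP and Ago2-IP libraries. No count test was run on the treated values. The hen1 locus table and miRNA tables were deposited as counts, and the RNA-seq locus table as FPKM, of unknown depth.

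Scaled values were tested with limma 3.58.1 on log2 of value + 1 (FPKM + 0.01) for loci with a value above 0 in all libraries compared and a relative SD under 1 within each genotype. Their fold changes are on that scale, which understates changes of low loci. For small RNA this was slight, as 1 read was 28.1 to 194 scaled reads, depending on the library. With 10 added in place of 1, the median log2 change of cis-NAT loci in total RNA was -0.151, against -0.154. The hen1 counts were tested with edgeR 4.0.16 (R 4.3.3), with DESeq2 1.42.0 as an alternative. The threshold was an adjusted p of 0.05 (Benjamini-Hochberg, two-sided). Same-numbered clones were not treated as pairs. Tests were checked on simulated data, where 87.3 to 100% of 4-fold changes at loci that passed the filter were recovered (24 such loci in Ago1-IP and 200 in poly(A) RNA). The simulated spread was fixed in advance and not taken from the clones. These shares thus do not give the power of the real tests. In real poly(A) RNA, cisNAT-590 had a log2 change of -3.56, dora against WT, with a limma adjusted p of 0.0986. Intervals here are SD or SE over clones, and nothing else tells how far clones represent a genotype.

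Loci named in the text are the 10 highest in treated and in total WT, at most 5 per direction past the threshold in a comparison without overlap of groups (otherwise the 3 with the smallest unadjusted p, as values), the 5 highest and lowest ratios, the 10 longest, the 5 of highest FPKM and loci of listed silencing genes. Some were added after their values were seen: the other strand of named loci, the one-strand loci, cisNAT+1429, the 5 marker-following loci and further loci called in hen1. Members and lists were chosen with earlier results of these data known. Genes were assigned from the Ensembl annotation of the same build.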

Additional observations from a re-analysis of the deposited data

Results flagged for a closer look

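At 3 loci every library without Dora lay to one side of its comparison group in one library type and to the other side in another. These are differences of log2 changes between library types, the differences were not tested, and groups of 3 are too small to look for single outlying libraries. cisNAT+370 (Myc opposite CG12535) had a log2 change of 1.50 in Ago1-IP libraries, dora against WT, and of -0.90 in Ago2-IP libraries, hen1/dora against hen1, which differ by 2.4. cisNAT+180 (c(2)M opposite CG5861) had a log2 change of -2.64 in treated libraries and 0.59 in Ago2-IP libraries, a difference of -3.23, from 1 or 2 reads in treated dora against 5 to 10 in treated WT and from 3, 3 and 5 reads in Ago2-IP hen1/dora against 2, 3 and 2 in hen1, where the nearest scaled values were 405.4 in hen1/dora and 403.3 in hen1. cisNAT+303 (Creld opposite Nhe1) had a log2 change of -0.49 in total libraries and 1.20 in Ago2-IP libraries, a difference of -1.69, and was also called lower in hen1 total RNA.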

How the results depend on the processing

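The cis-NAT counts changed as follows. In total RNA there was 1 locus higher with at least 10 reads in every library, and 1 higher and 5 lower with a replicate block. The block kept 0 calls in treated RNA and poly(A) RNA and 3 higher in Ago1-IP, and gave 8 higher and 77 lower in hen1. Same-numbered clones did not deviate together in every pair (correlations from -0.11 to 0.18 for treated RNA), so the numbers were not taken as pairs, and no block was fitted for Ago2-IP, where column numbers could not be tied to sample titles. In Ago1-IP libraries there were 29 higher and 5 lower with no filter, 0 higher with at least 10 reads, 5 lower when scaled to the total over loci and 3 lower with edgeR. Ago2-IP libraries gave 3 higher with edgeR and 1 lower when scaled to the total, and poly(A) RNA gave 2 higher and 7 lower with no filter. In hen1, loci called higher numbered 14 with TMM, 3 with DESeq2, 1 with no filter and 2 with at least 10 reads, and those called lower 22 with no filter. Of the 67 hen1 calls, 50 were kept with TMM and 44 with DESeq2. The cause was not tested.

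Leaving out 1 library gave 0 to 5 higher and 0 to 4 lower in total RNA, 0 to 12 and 0 to 4 in treated, 1 to 4 and 0 to 6 in Ago1-IP, 0 to 4 and 0 to 2 in Ago2-IP, 0 in poly(A) RNA, and 2 to 6 higher and 27 to 79 lower in hen1. The share of cis-NAT reads then ranged over 31.1 to 36.1% in total dora, 36.4 to 38.8% in total hen1, 37.3 to 38.7% in total WT, 33.2 to 39.4% in treated dora, 39.1 to 40.6% in treated WT, 38.4 to 39.4% in Ago1-IP dora, 49.1 to 49.7% in Ago1-IP WT, 52.3 to 53.6% in Ago2-IP hen1/dora and 57.6 to 60.1% in Ago2-IP hen1. With all members, which include the 5 marker-following loci, cis-NAT reads per 1000000 miRNA reads were 6698 to 7110 in total hen1 and 8563 to 9674 in total WT. They were 74016 to 92648 in treated dora and 81650 to 92284 in treated WT. In Ago1-IP they were 763 to 1005 in dora and 1042 to 1153 in WT, around group means of 918 and 1110.

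Without the 10 highest loci of each group the share was 32.7% in total hen1, 32.6% in total WT, 36.1% in treated WT, 12.1% in Ago1-IP dora, 12.5% in Ago1-IP WT, 47.8% in Ago2-IP hen1/dora and 54.2% in Ago2-IP hen1. Leaving out the 5 marker-following loci, chosen after seeing the data, gave 34.7% in total WT, 13.2% in Ago1-IP dora, 13.9% in Ago1-IP WT, 49.7% in Ago2-IP hen1/dora and 55.9% in Ago2-IP hen1; leaving out all 16 loci of any kind, also chosen later, gave 36.0% in total WT, 16.8% in Ago1-IP dora and 22.3% in Ago1-IP WT. Without the 5, reads per 1000000 miRNA reads were 5879 in total dora, 6232 in total hen1, 217 in Ago1-IP dora, 185 in Ago1-IP WT, 43640 in Ago2-IP hen1/dora and 45867 in Ago2-IP hen1. With all members, values per 1000000 reads of the 15-miRNA cohort were 9446 in total dora, 8796 in total hen1 and 12032 in total WT. They were 691833 in treated dora, 808439 in treated WT, 257898 in Ago2-IP hen1/dora and 259768 in Ago2-IP hen1. In Ago1-IP they were 1277 in dora and 1372 in WT with all members. Without the 5 loci the Ago1-IP values were 302.3 in dora and 228.5 in WT.

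The Spearman correlation of reads per kb with length was -0.52 with at least 10 reads and -0.69 with the limit of 300 nt added. With lower-strand FPKM it was 0.44 and 0.78. With higher-strand FPKM it was 0.39 and 0.27, or 0.68 with the limit of 300 nt alone, which was chosen after seeing the data. Reads per kb and FPKM both divide by length. Under the same 2 settings, read numbers not divided by length correlated with lower-strand FPKM at 0.085 and 0.68. With higher-strand FPKM these correlations were -0.051 and 0.18. Of the alternatives for the 36 named changes, 379 had the same status as the main fit, 22 lost a call and 16 gained one, and none reversed in sign. The 379 include loci not called in either fit. Alternatives in which a locus was not tested were left out of these counts. Depth limits Ago1-IP most, where 156 of 3476 loci were above 0 in all 6 libraries.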
